A study of Mus musculus with 12 samples.

Results

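The 7 genes examined here, Hdc, Cpa3, Ms4a2, Il1rl1, Fcer1a, Mcpt8 and Prss34, are markers of mast cells and basophils. They were taken by symbol from a table of 24421 gene symbols, and all 7 were present. The low-count filter passed 5 of them and left out Fcer1a and Prss34, which have values but no test. The values come from RNA-seq of GFP-positive LSK cells (a gate of cells without lineage markers but with Kit and Sca-1, which holds blood stem cells and early progenitors) sorted from mouse bone marrow. The cells came from secondary recipients of donor stem and progenitor cells of 4 genotypes, with 3 libraries each. The wildtype group had wildtype miR-146a and wildtype Runx1 and was titled Empty. The miR146aKO group, titled Mir-146 KO/Empty, lacked miR-146a, which dampens innate immune responses. The Runx1mut group carried Runx1S291fsX300, a frameshift mutant of the blood transcription factor Runx1. The miR146aKO_Runx1mut group carried both alterations. The labels give neither the age of the mice, nor the way the mutant was introduced, nor the meaning of Empty, and they do not state that each library is a separate animal. The p-values therefore reflect the spread among these libraries, which may be technical.

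Mast cells and basophils are rare granule-filled cells of the myeloid branch that arise from bone marrow progenitors. Both bind IgE through a high-affinity receptor, and when antigen joins the bound IgE they release histamine and proteases. Both also answer the alarm cytokine IL-33. In the marrow, Gata2 supports the shared early steps, and Kit signalling keeps mast cells but not mature basophils alive.

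Promoter sequences are shown for the 5 tested genes, because 4 of them were highest in Runx1mut libraries and Mcpt8 was not. They come from RefSeq on GRCm38.p6, which is the coordinate frame of mm10, and run 5′ to 3′ on the gene's strand up to the base before the start site. All 7 genes matched, with 8 promoters in all because Il1rl1 has a pair. Capitals mark GATA motifs (the letters AGATAA as well as AGATAG, and the letters TGATAA as well as TGATAG) and RUNX motifs (TGTGGT and also TGCGGT), each searched on both strands, and no printed match of either kind overlaps the other kind. The Hdc window (chr2:126618679-126618928, minus strand) lies within an intron of a longer annotated transcript. The windows of Cpa3 (chr3:20242182-20242431, minus strand), Ms4a2 (chr19:11623720-11623969, minus strand) and Il1rl1 (chr1:40429320-40429569, plus strand, the more upstream start) lie outside the annotated gene. The Mcpt8 window (chr14:56085274-56085447, minus strand) stops where an annotated exon begins.
Hdc: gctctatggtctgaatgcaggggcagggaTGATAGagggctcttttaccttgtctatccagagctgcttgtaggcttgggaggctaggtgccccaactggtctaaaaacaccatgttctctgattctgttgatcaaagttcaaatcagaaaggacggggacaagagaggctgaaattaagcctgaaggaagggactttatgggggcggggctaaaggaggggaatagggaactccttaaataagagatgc
Cpa3: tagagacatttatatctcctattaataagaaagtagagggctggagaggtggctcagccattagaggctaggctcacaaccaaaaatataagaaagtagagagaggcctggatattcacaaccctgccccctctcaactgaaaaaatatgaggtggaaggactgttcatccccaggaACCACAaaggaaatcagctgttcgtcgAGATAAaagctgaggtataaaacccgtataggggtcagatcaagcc
Ms4a2: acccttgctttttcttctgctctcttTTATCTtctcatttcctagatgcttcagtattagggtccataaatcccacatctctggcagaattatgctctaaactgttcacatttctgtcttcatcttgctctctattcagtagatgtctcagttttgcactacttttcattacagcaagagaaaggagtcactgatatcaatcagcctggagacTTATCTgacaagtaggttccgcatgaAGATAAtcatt
Il1rl1: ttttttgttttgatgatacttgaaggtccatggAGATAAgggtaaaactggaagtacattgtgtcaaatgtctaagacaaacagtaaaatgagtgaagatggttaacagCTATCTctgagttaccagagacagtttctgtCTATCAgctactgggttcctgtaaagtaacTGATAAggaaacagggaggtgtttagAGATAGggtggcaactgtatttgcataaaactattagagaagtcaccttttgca
Mcpt8: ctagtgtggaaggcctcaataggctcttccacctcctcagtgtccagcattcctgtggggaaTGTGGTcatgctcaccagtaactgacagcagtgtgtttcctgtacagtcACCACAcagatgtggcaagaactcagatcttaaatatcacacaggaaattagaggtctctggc

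GATA motifs were found in 7 of the 8 member promoters and in 26.5% of 32851 RefSeq promoters over the same 250 bases. RUNX motifs were found in 5 of 8, against 18.6% of all promoters. The printed Il1rl1 sequence holds 5 GATA matches and no RUNX match, while the 250 bases before its other start hold 1 of each. The Ms4a2 sequence holds 3 GATA matches and no RUNX match, and that of Mcpt8 holds no GATA match and 2 RUNX matches. Cpa3 has 1 of each, as do Fcer1a and Prss34, and Hdc has 1 GATA match. E-box letters (CANNTG) were in 7 of 8 (66.2% of all promoters), C/EBP letters (TTGCNNCAA and also TTGCNNAAT) in 1 of 8 (3.80%) and STAT letters (TTCNNNGAA) in 0 of 8 (7.02%). These are matches of letters in a short window, and no binding was measured.

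Total counts per library ran from 3540043 to 7026393. Levels are CPM, in which counts are divided by library sizes after TMM scaling. Since the reads were amplified, counting intervals and floors cover counting error only. Runx1, the altered transcription factor gene, ranged over 237 to 360 CPM in wildtype and 98.3 to 168 in miR146aKO, and over 199.5 to 609 in Runx1mut and 120 to 259 in miR146aKO_Runx1mut. Its count does not tell the mutant from the normal allele. Mir146, the knocked-out locus, had 0 counts in 11 libraries, including the 6 with intact miR-146a, and 14 counts in A031, which goes against the label of that miR146aKO_Runx1mut library. Kit and Ly6a (Sca-1), which define the gate, were detected in all 12 libraries, Kit at 24.6 to 711 CPM and Ly6a at 12.1 to 1020. The 6 gate genes listed summed to 1008 to 1103 CPM in wildtype, and to 254, 1771 and 356 in A021, A042 and A058. The 15 stem cell genes summed to 1194 to 3998 CPM in wildtype and 166 to 447 in miR146aKO. Stem cell sums were 136, 2252 and 424 in A021, A042 and A058, and 62.9, 1576 and 336 in A001, A031 and A051. Markers of cells outside the gate were also present. The 12 B lineage genes summed to 5448 to 10977 CPM in miR146aKO and to at most 766 in the other groups, and the 12 T and NK genes summed to 2181 in the miR146aKO library A047 and to at most 698 elsewhere. The 18 neutrophil genes summed to 2424 to 29335 CPM in wildtype and 4061 to 12445 in miR146aKO. In Runx1mut the neutrophil sums were 2773 in A042, 26008 in A058 and 59312 in A021, and in miR146aKO_Runx1mut they ran from 13913 to 61783. The 4 Y-linked genes summed to 0.547 to 32.0 CPM in wildtype and 13.8 to 241 in the other libraries. The part of these markers in the results that follow was not tested, and in sorted bulk RNA more cells of a type and more RNA per cell cannot be told apart.

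The Runx1mut library A042 stood apart for the mast cell genes. The 7 genes took 17490 of its counts, or 0.249% (95% Wilson interval 0.245% to 0.253%). The next highest shares were 0.0524% in the miR146aKO_Runx1mut library A031, 0.050% in A058 and 0.0260% in A021, the other Runx1mut libraries. The lowest was 0.000919% (40 counts) in the miR146aKO library A150. Results that rest on A042, A031 or A047 are given with and without them.

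**Figure D1:**
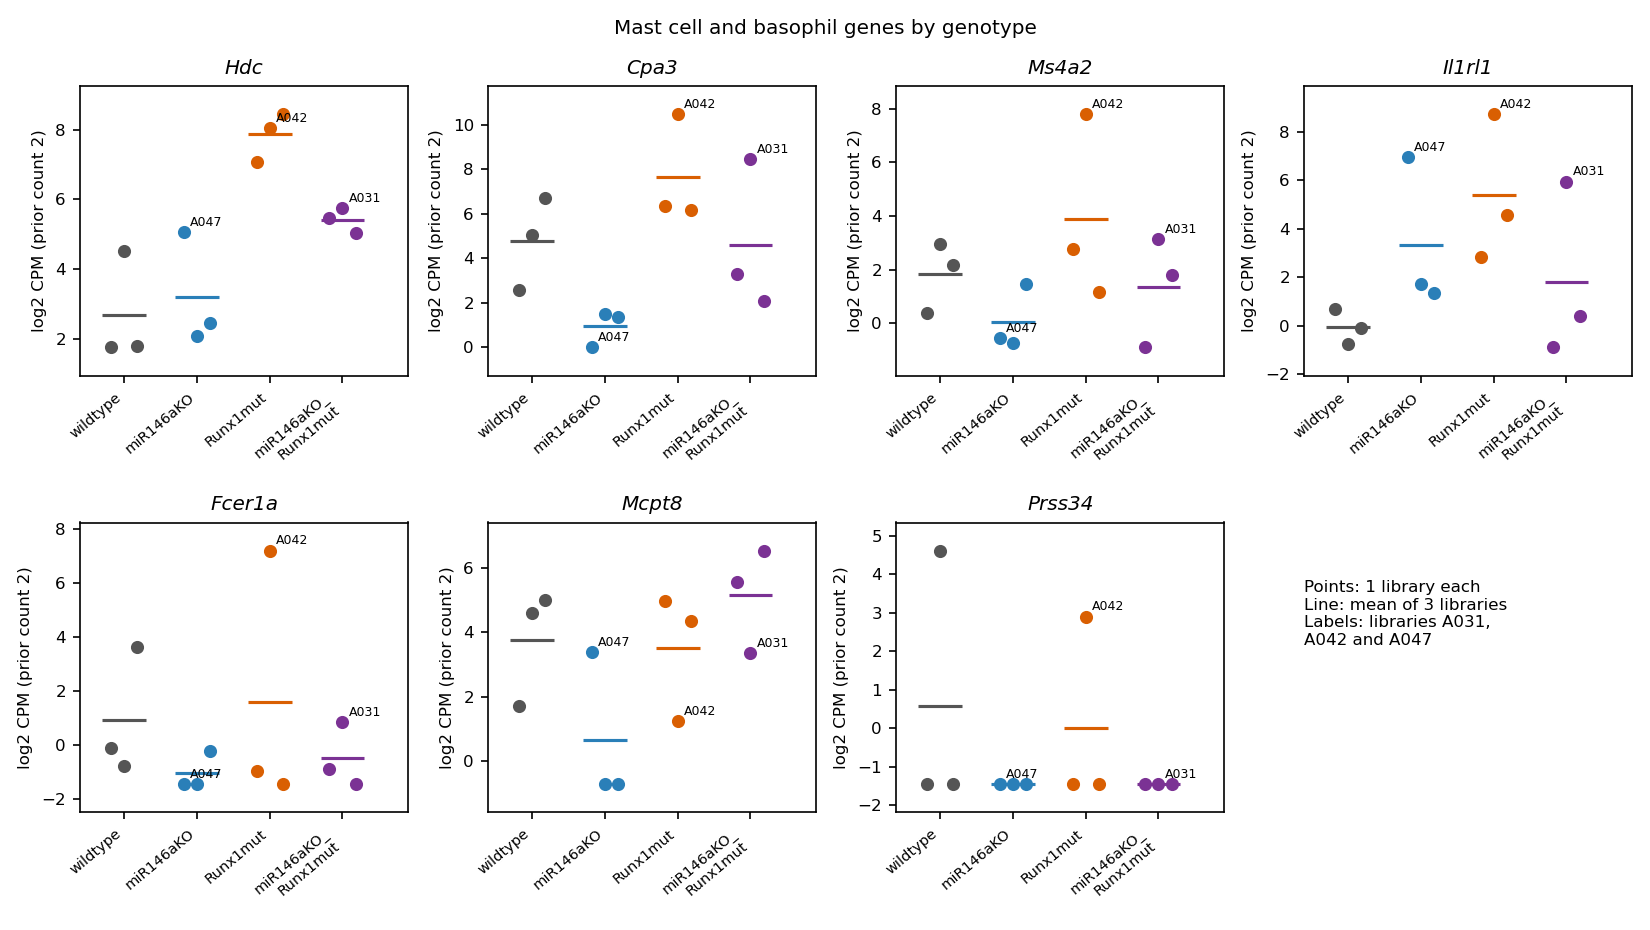
Level of each of the 7 genes, as log2 CPM with a prior count of 2 on the vertical axis, by genotype on the horizontal axis. Each point is 1 library and each line the mean of 3, with A031, A042 and A047 labelled. The 3 Runx1mut libraries lie above all others for Hdc, while for Cpa3, Ms4a2, Il1rl1 and Fcer1a the library A042 lies far above the other Runx1mut libraries.

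Hdc (chromosome 2, 126593667 to 126619299) encodes histidine decarboxylase, the enzyme that makes histamine, and is also expressed by some immature myeloid cells. It was higher in Runx1mut than in any other group. Its levels were 135 CPM in A021, 265 in A042 and 348 in A058. In wildtype they were 3.01 CPM in A015, 22.6 in A040 and 3.13 in A053. All Runx1mut libraries thus lay above all wildtype libraries, and here A042 was not the highest. Among miR146aKO libraries it was at 33.2 CPM in A047, and at 3.87 and 5.11 in A150 and A151. The miR146aKO_Runx1mut libraries held 43.6 CPM in A001, 53.3 in A031 and 32.7 in A051, all above wildtype and all below Runx1mut. In order, the group means were 249 ± 107 CPM in Runx1mut, 43.2 ± 10.3 in miR146aKO_Runx1mut, 14.1 ± 16.6 in miR146aKO and 9.60 ± 11.3 in wildtype (SD, n = 3 libraries). The last 2 overlapped, and so did the middle pair, by A051 and A047.

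The log2 fold change of Hdc was 4.71 (SE 0.98) for Runx1mut against wildtype, with an edgeR adjusted p of 0.357 over all 12744 genes tested (unadjusted 0.00026), so it did not pass the threshold of 0.05. Adjusted p over the alternatives ran from 1.86e-05 to 0.784. Without A042 the log2 fold change was 4.67. When both Runx1mut groups were set against both Runx1 wildtype groups, it was 3.17 (SE 0.64, edgeR adjusted p = 0.101), with adjusted p from 8.75e-07 to 0.197 over the alternatives. That pooled contrast was past the threshold without A047 (log2 fold change 3.99, adjusted p = 0.0487) and in DESeq2, limma-voom and the fit with no filter. For miR146aKO_Runx1mut against wildtype the value was 2.19 (SE 0.88, adjusted p = 0.486), and for miR146aKO_Runx1mut against Runx1mut it was -2.53 (SE 0.88, adjusted p = 0.979). The interaction is the Runx1mut change seen in the knockout background less the change seen in the wildtype background. It was -3.08 (SE 1.22, adjusted p = 0.458, unadjusted 0.024), and ran from -4.68 to -1.46 over the alternatives. Of the neutrophil sums given above, that of A021 lay above the wildtype range and those of A042 and A058 within it, and their part in the Hdc result was not tested.

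Cpa3 (chromosome 3, 20215620 to 20242181) encodes carboxypeptidase A3, a granule protease of mast cells that is also transcribed in basophils and their progenitors. It was lowest in miR146aKO and highest in A042. The miR146aKO level was 0.632 CPM for A047, 2.42 for A150 and 2.19 for A151. Wildtype held 5.61 CPM in A015, 32.2 in A040 and 102 in A053, so that these groups did not overlap. Runx1mut held 79.7 CPM in A021, 1419 in A042 and 70.3 in A058, and miR146aKO_Runx1mut held 9.30 in A001, 348 in A031 and 3.88 in A051. The last 3 all lay above miR146aKO, but A001 and A051 lay within or below the wildtype range. The means were 523 ± 776 CPM in Runx1mut, 121 ± 197 in miR146aKO_Runx1mut, 46.7 ± 50.0 in wildtype and 1.75 ± 0.97 in miR146aKO (SD, n = 3), and each neighbouring pair except wildtype with miR146aKO overlapped.

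For Cpa3, the log2 fold change of miR146aKO against wildtype was -4.69 (SE 1.73, edgeR adjusted p = 0.209). Against miR146aKO, miR146aKO_Runx1mut was higher by 6.06 (SE 1.82, adjusted p = 0.162) on the log2 scale. Over the alternatives that value ran from 1.88 to 6.63, and without A031 the miR146aKO_Runx1mut mean was 6.59 CPM. Runx1mut against wildtype gave 3.48 (SE 1.55, adjusted p = 0.888), which became 0.68 without A042, where the Runx1mut mean was 75.0 CPM. The pooled Runx1mut contrast gave 4.77 (SE 1.19, adjusted p = 0.163), and 3.37 without A042 and 2.68 without A031. The pooled miR146aKO contrast gave -3.40 (SE 1.13, adjusted p = 0.218), and without A031, the library with Mir146 counts, it was -5.49 and past the threshold (adjusted p = 0.039). Without A042 the same contrast was -2.01. In miR146aKO against wildtype the gate genes differed in sign. The log2 fold change there was -2.95 (SE 0.68, edgeR adjusted p = 0.0725) for Kit and 2.42 (SE 0.91, adjusted p = 0.218) for Ly6a. Of the 6 gate genes listed, 1 was higher and 2 were lower at an unadjusted p under 0.05. Gata2, a fate factor, had -3.81 (SE 1.46, adjusted p = 0.226), and the B lineage sums given above were highest in miR146aKO. The part of these in the Cpa3 result was not tested.

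Ms4a2 (chromosome 19, 11615523 to 11623719) encodes the signal-amplifying beta chain of the high-affinity IgE receptor, and Fcer1a (chromosome 1, 173221284 to 173227214) its IgE-binding alpha chain. Both were high in A042 and at most 8.53 CPM (Ms4a2) and 11.96 CPM (Fcer1a) in the other 11 libraries. Ms4a2 was at 222 CPM in A042, 6.39 in A021 and 1.88 in A058. It was at 0.958, 7.33 and 4.13 CPM in the wildtype libraries A015, A040 and A053, and at 0.316, 0.242 and 2.43 in A047, A150 and A151 of miR146aKO. In miR146aKO_Runx1mut it was at 0.172 CPM in A001, 8.53 in A031 and 3.15 in A051. The means were 76.7 ± 126 CPM in Runx1mut, 4.14 ± 3.19 in wildtype, 3.95 ± 4.23 in miR146aKO_Runx1mut and 0.997 ± 1.24 in miR146aKO (SD, n = 3). All groups overlapped their neighbours, and A042 was 26.0 times the next library, A031. The log2 fold change of Runx1mut against wildtype was 4.22 (SE 1.65, edgeR adjusted p = 0.809), and without A042 it was 0.0025. For miR146aKO_Runx1mut against Runx1mut it was -4.27 (SE 1.65, adjusted p = 0.979), and -0.069 without A042.

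Fcer1a was at 148 CPM in A042, which held 91.1% of its 1140 counts. The next library was the wildtype A053 at 11.96 CPM, followed by A031 at 1.42. A015 and A040 held 0.547 and 0.222 CPM, A151 held 0.487, A021 held 0.142 and A001 held 0.172. It had 0 counts in A047, A150, A058 and A051, where 3 counts would correspond to 0.948, 0.726, 0.513 and 0.727 CPM. The Runx1mut mean was 49.3 ± 85.3 CPM (SD, n = 3) with A042 and 0.0709 (n = 2) without it. Fcer1g, the gamma chain that this receptor shares with other Fc receptors of myeloid cells, had another pattern, with 539 CPM in A150, 516 in A051, 442 in A151 and only 14.1 in A042.

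Il1rl1 (chromosome 1, 40429570 to 40465415) encodes ST2, the receptor chain that binds IL-33 and is also made by some T and innate lymphoid cells. Its levels were lowest in wildtype, at 1.23 CPM in A015, 0.222 in A040 and 0.570 in A053. Runx1mut held 6.81 CPM in A021, 426 in A042 and 23.1 in A058, all above wildtype. Of the miR146aKO libraries A047 had 123 CPM, A150 had 2.90 and A151 had 2.19, also all above wildtype. In miR146aKO_Runx1mut only A031 was high, at 61.1 CPM, against 0.172 in A001 and 0.970 in A051. The means were 152 ± 237 CPM in Runx1mut, 42.6 ± 69.3 in miR146aKO, 20.8 ± 35.0 in miR146aKO_Runx1mut and 0.674 ± 0.513 in wildtype (SD, n = 3), and each neighbouring pair in that order overlapped.

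The log2 fold change of Il1rl1 was 7.71 (SE 2.38, edgeR adjusted p = 0.642) for Runx1mut against wildtype and 4.38 without A042. For miR146aKO against wildtype it was 5.87 (SE 2.22, adjusted p = 0.220) and 1.82 without A047, the library with Cd3e, a T cell receptor chain, at 644 CPM. For miR146aKO_Runx1mut against wildtype it was 4.84 (SE 2.14, adjusted p = 0.507) and -0.38 without A031. The interaction was -8.74 (SE 2.88, adjusted p = 0.370, unadjusted 0.009), and -5.41 without A042. Over the alternatives it ran from -13.95 to -4.70. Il1rap, the co-receptor chain that IL-33 shares with other IL-1 family cytokines, lay between 7.41 and 27.4 CPM in all 12 libraries, with overlapping groups.

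Mcpt8 (chromosome 14, 56082166 to 56085273) and Prss34 (chromosome 17, 25298394 to 25300165) encode the basophil granule proteases known as mast cell protease 8 and mast cell protease 11. Mcpt8 had a different order from the other genes, and A042 was among its low libraries. It was at 46.7 CPM in A001, 9.95 in A031 and 93.4 in A051 of miR146aKO_Runx1mut. Wildtype held 2.87, 24.2 and 31.8 CPM in A015, A040 and A053, and Runx1mut held 31.4 in A021, 1.99 in A042 and 20.0 in A058. In miR146aKO it was at 10.1 CPM in A047 and at 0.242 and 0.243 in A150 and A151, which is 1 count each. Group means were 50.0 ± 41.8 CPM in miR146aKO_Runx1mut, 19.6 ± 15.0 in wildtype, 17.8 ± 14.8 in Runx1mut and 3.53 ± 5.70 in miR146aKO (SD, n = 3), and all neighbours overlapped. The log2 fold change of miR146aKO_Runx1mut against miR146aKO was 3.84 (SE 1.46, edgeR adjusted p = 0.245), and 7.56 without A047. For miR146aKO against wildtype it was -2.49 (SE 1.39, adjusted p = 0.410), and -6.21 without A047. Runx1mut against wildtype gave -0.14 (SE 1.29, adjusted p = 1.0).

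Prss34 was found in 2 libraries only, at 24.2 CPM (109 counts) in the wildtype A040 and 7.11 CPM (50 counts) in A042. The other 10 libraries had 0 counts, with floors of 3 counts at 0.410 to 0.948 CPM. The 2 basophil proteases did not go together, since A051, highest for Mcpt8, had no Prss34 count.

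**Figure D2:**
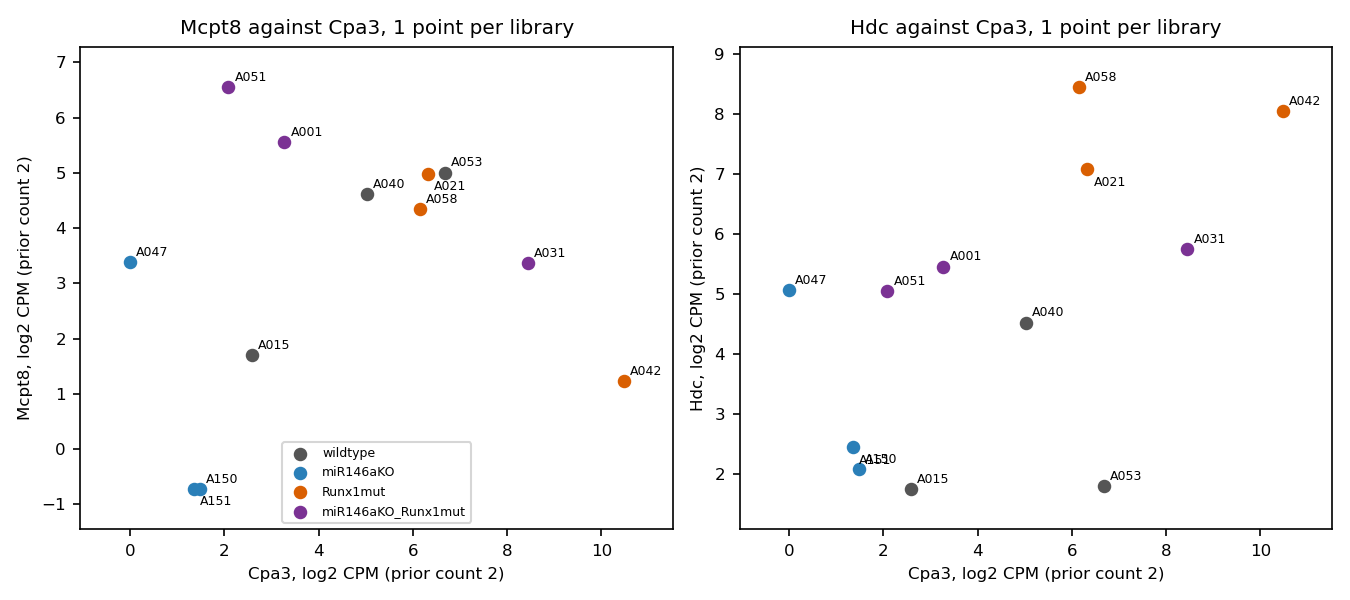
Mcpt8 (left) and Hdc (right) against Cpa3, all as log2 CPM with a prior count of 2, with 1 labelled point per library coloured by genotype. A042 has the highest Cpa3 level and a low Mcpt8 level, while for Hdc the 3 Runx1mut libraries lie highest whatever their Cpa3 level.

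Across all 12 libraries the closest pair among the 7 genes was Cpa3 and Ms4a2, with a Pearson r of log2 CPM of 0.82 (0.72 over 11 libraries without A042). Ms4a2 and Fcer1a had 0.80 (0.39 without A042), and Cpa3 and Fcer1a 0.72 (0.50). Hdc and Cpa3 had 0.55 (0.40). Mcpt8 was at 0.37 with Hdc (0.56 without A042), 0.17 with Cpa3 (0.42) and -0.26 with Il1rl1 (-0.13). The points share genotype and library composition, so these values are descriptions. Per kilobase of exon, on the RPKM scale, Cpa3 was the highest of the 7 in wildtype (mean 30.8), followed by Mcpt8 (19.6), Prss34 (6.61), Fcer1a (4.25), Hdc (1.502), Ms4a2 (1.47) and Il1rl1 (0.0978). In Runx1mut the mean order was Cpa3 (345), Fcer1a (49.4), Hdc (39.0), Ms4a2 (27.3), Il1rl1 (22.04), Mcpt8 (17.8) and Prss34 (1.94). That order rests on A042, since over the other 2 Runx1mut libraries the means were 49.5 for Cpa3, 37.8 for Hdc, 25.7 for Mcpt8, 2.17 for Il1rl1, 1.47 for Ms4a2 and 0.0711 for Fcer1a, with Prss34 at 0 counts.

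**Figure D3:**
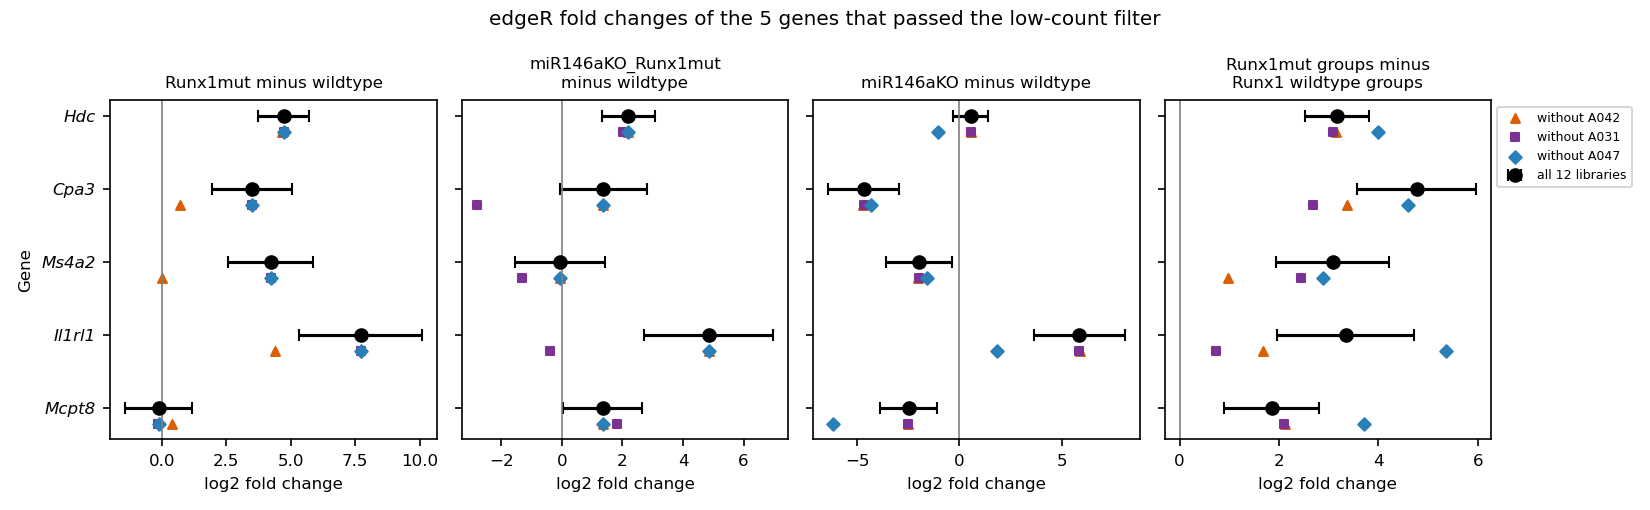
Log2 fold change with its SE (black, all 12 libraries, horizontal axis) for the 5 genes that passed the filter (vertical axis), in 4 comparisons, with coloured symbols for the refits without A042, A031 or A047. Without A042 the Runx1mut change of Ms4a2 moves to 0.0025 and that of Cpa3 to 0.68, while Hdc stays at 4.67.

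In edgeR, no comparison had a member past the adjusted threshold. For Runx1mut against wildtype 0 of the 5 tested were called (0.0% of all genes tested). At an unadjusted p under 0.05, Hdc, Cpa3, Ms4a2 and Il1rl1 were higher, which is 4 of 5 against 2.64% of all genes. Without A042 there were 2 (Hdc and Il1rl1), against 3.45%. DESeq2, which in every comparison gave an adjusted p for 3 members (Hdc, Il1rl1 and Mcpt8), called Hdc and Il1rl1 (0.901% of all genes), and limma-voom called 0 (0.0%). Hdc and Il1rl1 were also the tested members whose Runx1mut libraries all lay above wildtype, as did those of 5.72% of all genes. For miR146aKO against wildtype 0 of 5 were called in edgeR (0.18% of all genes) and in limma-voom (0.596%), while DESeq2 called Il1rl1 (7.63%). At an unadjusted p under 0.05 Il1rl1 was higher (8.81% of all genes) and Cpa3 lower (7.09%), while without A047 neither was and Mcpt8 was lower (7.3%). Il1rl1 and Cpa3 also had no overlap with wildtype, as had 10.7% of all genes on the higher side and 10.3% on the lower. The comparisons against wildtype share its 3 libraries.

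For miR146aKO_Runx1mut against wildtype 0 of 5 were called in edgeR (0.0% of all genes) or limma-voom (0.0%), and 0 of 3 in DESeq2 (1.88%). Hdc and Il1rl1 were higher at an unadjusted p under 0.05 (4.99% of all genes), and without A031 no member was (5.1%). Hdc had no overlap with wildtype there (6.32% of all genes). Against Runx1mut 0 of 5 were called in edgeR (0.0%) or limma-voom (0.0%) and 0 of 3 in DESeq2 (0.566%), and Hdc and Ms4a2 were lower at an unadjusted p under 0.05 (1.75%), Hdc without overlap (5.42%). Without A042 Hdc alone was lower (1.5%). Without A031 the filter let all 7 genes in, and Hdc, Cpa3, Ms4a2 and Il1rl1 were lower, against 5.06% of all genes. Fcer1a was lower as well, but A042 held 91.1% of its counts, so it is not counted. Cpa3, Ms4a2 and Il1rl1 also rested on A042, since leaving it out gave log2 fold changes of 0.68, -0.069 and 0.47. Against miR146aKO 0 of 5 were called in edgeR (0.0157%) or limma-voom (0.0942%) and 0 of 3 in DESeq2 (5.96%). Cpa3 and Mcpt8 were higher at an unadjusted p under 0.05 (7.6%), Cpa3 without overlap (9.45%). Without A047 Hdc was also higher (7.53%), and without A031 Mcpt8 was higher (7.57%) and Il1rl1 lower (10.1%). The interaction had 0 of 5 called in edgeR (0.0235%) or limma-voom (0.0%) and 0 of 3 in DESeq2 (1.77%), with Hdc and Il1rl1 lower at an unadjusted p under 0.05 (5.04%). Without A042 Hdc was lower (4.96%) and Cpa3 higher (4.56%). Without A031 Hdc and Il1rl1 were lower (7.59%) and Mcpt8 higher (4.49%), and without A047 the only member at that p was Mcpt8, which was higher (5.43%).

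In the pooled Runx1mut contrast 0 of 5 were called in edgeR (0.0942% of all genes), and Hdc was called in DESeq2 (3.7%) and in limma-voom (0.0863%). Hdc, Cpa3, Ms4a2 and Il1rl1 were higher at an unadjusted p under 0.05 (6.28% of all genes). Without A047, a miR146aKO library, Mcpt8 was higher as well, which made 5 of 7, against 6.78% of all genes. Without A042 (6.22%), and likewise without A031 (6.19%), there were 3, namely Hdc, Cpa3 and Mcpt8. In the pooled miR146aKO contrast 0 of 5 were called in edgeR (0.4%) or limma-voom (0.0157%), and 0 of 3 in DESeq2 (4.07%). Cpa3 and Ms4a2 were lower at an unadjusted p under 0.05 (4.66%), while without A042 neither was and Il1rl1 was higher (6.97%). Without A047 or A031 all 7 genes were tested. Fcer1a and Prss34 then passed the filter mainly through libraries with intact miR-146a, which held most of their counts. Their lower values in both refits were thus largely set by the filter and are not counted. Lower without A047 were Hdc, Cpa3, Ms4a2 and Mcpt8, against 5.68% of all genes. Lower without A031 were Cpa3 and Ms4a2, against 6.83%. Cpa3 was past the adjusted threshold there, as were 75 of 13402 genes tested.

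The other granule genes told A042 further apart. Cma1, the mast cell chymase, was at 383 CPM in A042, 10.7 in A031 and at most 1.11 in the other 10 libraries. Tpsb2, a mast cell tryptase, was at 53.8 CPM in A042, 1.60 in A031 and at most 0.513 elsewhere. Mcpt4, a chymase of connective tissue mast cells, had 117 counts (16.6 CPM) in A042 and 0 in the other 11. A042 thus held mast cell proteases that the other libraries had at or near 0, beside the highest level of Slc18a2 (450 CPM), the vesicle transporter that loads histamine into granules. Of the 18 granule genes listed, 17 had a count in A042 and 8 to 11 in each other library, and 10 were highest in A042, 4 of them (Mcpt1, Mcpt2, Mcpt9 and Tpsab1) through 1 to 11 counts. Among the 9 granule genes that passed the filter, 3 were highest in A042 (Cpa3, Slc18a2 and Ndst2), as were 4.83% of all genes tested. Another 3 of the 9 were highest in A001, as were 11.5% of all genes tested. The 18 granule genes summed to 5621 CPM in A001 and 4138 in A021, both above the 3834 in A042. Lists of other cells also peaked in 1 library, with 9 of 12 B lineage genes highest in A151 and 11 of 15 monocyte and macrophage genes in A150. The surface gene Cd200r3 was at 6.69 CPM and the cytokine gene Il4 at 8.25 in A042, with at most 1.21 and 1.95 elsewhere. Eosinophil peroxidase (Epx) was at most 0.684 CPM in any library. A042 also had the highest level of Gata2 (776 CPM), Kit (711 CPM) and Runx1 (609 CPM), and B lineage, T and NK and monocyte sums of 17.6, 23.3 and 320 CPM, the lowest of all.

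**Figure D4:**
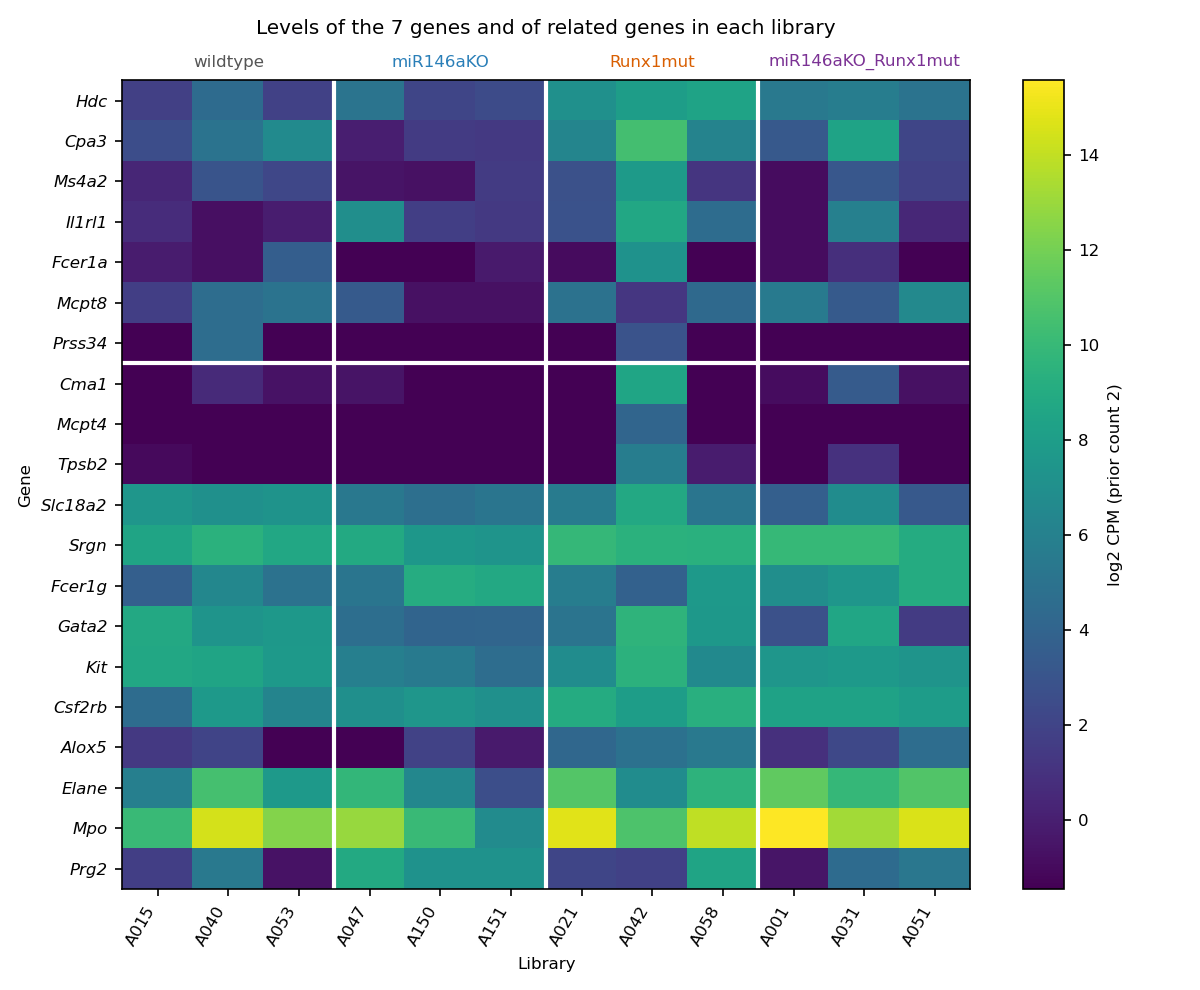
Log2 CPM (prior count 2, colour scale) of the 7 genes above the white line and of related granule, receptor, transcription factor and myeloid genes below it, in each of the 12 libraries grouped by genotype. Of the 12 libraries, A042 has the highest level of Cpa3, Ms4a2, Il1rl1, Fcer1a, Cma1, Mcpt4 and Tpsb2, while its Mcpt8 level is low.

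Of the granule list, 9 of 18 genes could be tested. In the pooled Runx1mut contrast 0 were called over all genes, 5 were higher and 0 lower at an unadjusted p under 0.05, and the median log2 fold change was 1.54, beside 0.003 over all genes tested. Without A042 there were 6 higher of 9, with a median of 1.57. Serpinb1a, an inhibitor of neutrophil and mast cell serine proteases, was at 454, 339 and 340 CPM in Runx1mut and 44.1, 131 and 142 in wildtype (A021, A042, A058 and A015, A040, A053), and all Runx1mut libraries lay above. Its pooled log2 fold change was 1.54 (SE 0.34, edgeR adjusted p = 0.126). Srgn, the proteoglycan core to which granule proteases bind, had 1.10 (SE 0.31, adjusted p = 0.187). The 5 higher genes were these 2, Hdc, Cpa3 and the protease Ctsg, a neutrophil and mast cell granule gene named after its values were seen (2.29, edgeR adjusted p = 0.360). Serpinb1a, Srgn and Ctsg are also made by neutrophils.

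Among the 17 tested genes of IgE receptor signalling, 1 (Ms4a2) was higher and 0 lower at an unadjusted p under 0.05 in that contrast, with a median of 0.15. Of all 12744 genes tested, 800 (6.28%) were higher and 800 lower at that p, the share to set beside each list. The list of IL-33 receptor signalling had 2 higher of 10 (median 0.10), which were Il1rl1 and Myd88, the adaptor of the receptor (log2 fold change 1.04, edgeR adjusted p = 0.375), and without A042 it had 0. The lipid mediator list had 3 higher and 1 lower of 9 (median 0.40), the lower being Hpgd, which degrades prostaglandins and was named after its values were seen. Alox5, the lipoxygenase that starts leukotriene synthesis, was at 18.3 CPM in A021, 29.0 in A042 and 41.9 in A058, against 0 to 3.77 in wildtype, and its pooled log2 fold change was 3.42 (SE 1.11, adjusted p = 0.239). Its partner Alox5ap had 1.20 (SE 0.34, adjusted p = 0.187), and Ptgs1, a cyclooxygenase, 1.01 (SE 0.35, adjusted p = 0.261). None of these passed the threshold in edgeR.

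The fate factor list, with Gata2, Gata1, Mitf, Cebpa and Runx1 among its 16 tested genes, had 0 higher and 1 lower (Notch2, -0.82, edgeR adjusted p = 0.384) and a median of 0.21. Gata2 was at 33.3 CPM in A021, 776 in A042 and 200.3 in A058 of Runx1mut, and at 6.37, 394 and 2.42 in A001, A031 and A051, so that its groups overlapped. The growth factor receptor list had 3 higher (Csf2rb, Csf2rb2 and Kit) and 1 lower of 11, with a median of -0.64. Csf2rb, the beta chain shared by the receptors for IL-3, IL-5 and GM-CSF, was at 523, 256 and 621 CPM in Runx1mut and at 23.3, 205 and 74.6 in wildtype, again without overlap. Its pooled log2 fold change was 1.61 (SE 0.42, adjusted p = 0.167), and that of its mouse paralogue Csf2rb2 0.96 (SE 0.39, adjusted p = 0.325). Reads of these similar genes may be split between them. Kit was at 101 to 711 CPM (median 113) in Runx1mut and 218 to 436 in wildtype, which overlapped. Without A042 its Runx1mut mean was 107 CPM, below the wildtype mean of 339. It was at 164 to 219 CPM in miR146aKO_Runx1mut and 24.6 to 59.7 in miR146aKO. Itgb7, an integrin chain of mast cell progenitors that B and T cells also carry, was the lower gene at -1.42 (SE 0.53, adjusted p = 0.292).

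The list of other surface genes had 4 higher and 0 lower of 10, with a median of 0.99, and 4 higher again without A042 (median 0.55). It included Cd63, a granule membrane protein used to mark degranulation (1.21, SE 0.34, edgeR adjusted p = 0.187), the inhibitory receptor Lilr4b (2.19, SE 0.69, adjusted p = 0.231) and the complement receptor C5ar1 (2.93, SE 1.04, adjusted p = 0.274). The fourth was Rab44 (1.58, SE 0.74, adjusted p = 0.397), a granule-linked Rab protein. The cytokine list had 1 higher of 8, which was Ccl9 (1.75, SE 0.60, adjusted p = 0.260). Over all 8 lists no gene was called in this contrast. Neutrophil genes had 8 higher and 0 lower of 18 in it, with a median of 1.66, and megakaryocyte genes 4 higher and 0 lower of 10, with a median of 2.22. B lineage genes had 0 higher and 8 lower of 12 (median -2.74), and monocyte and macrophage genes 1 higher and 3 lower of 15 (median -0.66). The miR146aKO group, which had the highest B lineage sums, is part of the reference in this contrast. The part of these cell lists in the mast cell results was not tested.

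In miR146aKO against wildtype the granule list had 1 higher (Tpsg1, a tryptase named after its values were seen, at 7.55 to 37.9 CPM against 0 to 0.222 in wildtype) and 2 lower of 9 (Cpa3 and Slc18a2, median -0.83) and the fate factor list 2 higher (Hes1 and Notch2) and 4 lower (Gata2, Tal1, Lmo2 and Runx1) of 16 (median 0.07), with none called over all genes. IgE receptor signalling had 6 higher and 0 lower of 17 (median 0.79), among them Fcer1g at 2.99 (SE 1.06, edgeR adjusted p = 0.192). The receptor's alpha and beta chains were low in miR146aKO, Fcer1a at most 0.487 CPM and Ms4a2 at most 2.43. B lineage sums were 5448 to 10977 CPM in miR146aKO, and the monocyte sums of A150 and A151 were 10158 and 7421. The part of such cells in this list was not tested. At the unadjusted p under 0.05 used for these lists, 8.81% of all genes tested were higher and 7.09% lower. Hpgds, the prostaglandin D2 synthase of mast cells and macrophages, was at 139 and 127 CPM in A150 and A151 but 7.90 in A047, against 5.13 to 12.4 in wildtype (log2 fold change 3.30, SE 1.00, adjusted p = 0.146). Slc18a2 was at 40.5, 26.4 and 35.1 CPM in A047, A150 and A151 and at 136 to 181 in wildtype (-2.21, SE 0.97, adjusted p = 0.288). The 15 monocyte and macrophage genes summed to 812 to 10158 CPM in miR146aKO and 331 to 989 in wildtype. Prg2, an eosinophil granule protein gene, was at 147 to 484 CPM in miR146aKO and 0.285 to 42.9 in wildtype, while Epx had 0 counts in all 3 miR146aKO libraries.

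Genes with the most similar pattern were sought among 9578 genes with a mean log2 CPM of at least 2, by Pearson r over the 12 libraries. Closest to the mean of the 5 tested members were Cited2 (0.85), Alox5ap (0.84), Map3k6 (0.83), Fkbp5 (0.82), Ptpre (0.81), Clint1 (0.81), Itga2b (0.80), Tmprss3 (0.80), Clec4e (0.80) and Ndufa4 (0.79). Without A042 these values ran from 0.71 to 0.85. Itga2b, the platelet integrin chain that early mast cell and megakaryocyte progenitors carry, was at 1112 CPM in A042 and 894 in A031, the same libraries that led for Cpa3. Closest to Hdc were F13a1 (0.86), Rab44 (0.84) and Hcst (0.84), and closest to Cpa3 were Ppm1e (0.92), Map3k6 (0.90) and Tmprss3 (0.88). Ms4a2 was closest to Galnt1 (0.85, but 0.61 without A042), Il1rl1 to Srsf5 (0.89) and Lat (0.87), and Mcpt8 to Syce2 (0.95), Ddx18 (0.95) and Ramp1 (0.94). No gene was among the 3 closest to both Mcpt8 and another member.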

How the data were processed

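The authors deposited raw read counts per gene symbol for 12 libraries, made per the submitters' processing notes on the mm10 build with HISAT2 2.0.4 and featureCounts 1.5.2, with FastQC 0.11.2 also named. How the counting treated strand and multi-mapped reads, and which gene models it used, is not given here. Per the labels' protocols, RNA was amplified (NuGEN Ovation v2) before Nextera XT library preparation, which does not keep strand. A deposited table gave each column's genotype without a replicate number, so libraries carry their column identifiers.

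From these counts, edgeR 4.0.16 (R 4.3.3) was run as a quasi-likelihood test with TMM scaling and the default filter, in 1 fit over 12 libraries, 12744 genes and 8 contrasts. The call threshold was 0.05 on p-values adjusted by Benjamini-Hochberg over all genes tested, and every p given without another tool's name is from this test. Alternatives were DESeq2 1.42.0, limma-voom 3.58.1, other size factors, other filters, fits of only the groups compared, and leaving out each library. The test was checked on simulated data.

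Gene positions are from GENCODE M21, in which Cpa3 and Mcpt8 each overlap a microRNA gene on the same strand (Mir7007 and Mir6949). The members and lists were chosen with earlier results of these data known. Named genes are the 7 members, a fixed set of partner and marker genes, up to 3 genes per list with the smallest unadjusted p in the pooled Runx1mut contrast, and the genes most like the members. Others, such as Mir146, Cd3e, Hpgd, Ctsg, Tpsg1, Tal1, Lmo2 and Hes1, were chosen after their values were seen.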

Additional observations from a re-analysis of the deposited data

How the results depend on the processing

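The 40 log2 fold changes of the 5 tested members were recomputed in 687 refits. In 645 the direction and side of the threshold were the same, in 26 the change came past the threshold, and in 16 the sign turned. With no filter on low counts, 19210 genes were tested, among them all 7 members, so Fcer1a and Prss34 could also be called. Members called for Runx1mut against wildtype were 4, beside 162 of all genes, and for miR146aKO against wildtype 2, beside 796. For miR146aKO_Runx1mut it was 1 against wildtype (256 of all genes), 3 against Runx1mut (144) and 2 against miR146aKO (549). The interaction had 2 (268), pooled Runx1mut 4 (460) and pooled miR146aKO 4 (624). DESeq2 called 2, 1 and 1 for Runx1mut against wildtype, miR146aKO against wildtype and pooled Runx1mut, and limma-voom called 1 for pooled Runx1mut. Leaving out 1 library gave 0 to 1 members for pooled Runx1mut (1 without A047) and 0 to 1 for pooled miR146aKO (1 without A031). Of all genes, those refits called 10 of 13460 without A047 and 75 of 13402 without A031. The cause was not tested.

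Sign changes came from leaving out 1 library, and in 1 case from limma-voom (Il1rl1 in the pooled miR146aKO contrast, -0.19). With 1 library left out, Il1rl1 in that contrast ran from -1.11 (without A031) to 3.18, and was -0.52 without A047. Hdc in miR146aKO against wildtype ran from -1.07 (without A047) to 2.11. For miR146aKO_Runx1mut against wildtype, Cpa3 ran from -2.81 (without A031) to 2.69, Il1rl1 from -0.38 (without A031) to 5.56, and Ms4a2 from -1.33 to 0.57 (without A040), with 0.51 without A001 and 0.081 without A051. Against Runx1mut, Cpa3 ran from -6.29 to 0.68 and Il1rl1 from -8.09 to 0.47, the upper values without A042. Against miR146aKO, Il1rl1 ran from -6.24 to 3.02 (without A047). For the interaction, Cpa3 ran from -1.60 (without A031) to 5.38 and Ms4a2 from -3.56 to 1.95 (without A042). Mcpt8 in Runx1mut against wildtype ran from -0.87 to 0.40 (without A053), with 0.39 without A042. No paired analysis was possible because the columns of the count table carry no replicate numbers. By Spearman rho in place of Pearson r, 6 of the 10 genes closest to the members' mean were shared.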
